A study of Mus musculus with 20 samples.

Results

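The genes described are 45 interferon-induced genes in mouse liver, out of 55487 genes in the count table. They were chosen by name, as genes that interferons switch on, with earlier results of these data known. A type I set of 30 genes holds the antiviral genes best known as targets of type I interferons, and a gamma-type set of 15 genes holds the interferon-inducible GTPases, the immunoproteasome subunits, Tap1 and Irf1, which interferon gamma induces. The sets overlap in biology, since both kinds of interferon can raise genes of either. RNA-seq was done on whole liver of C57BL/6N females aged 15 weeks. The 20 libraries fell into 4 groups of 5: Plin2-null fasted and Plin2+/+ fasted, both without food for 24 h, and Plin2-null fed and Plin2+/+ fed, both on chow. Plin2 encodes perilipin 2, which coats lipid droplets. For 10 libraries no label states the genotype. They were read as Plin2-/- by elimination, because the design text names only the 2 genotypes, and are called Plin2-null here. No label says whether libraries come from separate animals, so the p-values speak only of spread among these samples, which may be technical.

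Interferons are signalling proteins, and those of type I are released by cells that sense foreign or misplaced nucleic acid. Type I interferons bind the receptor IFNAR and act through JAK1, TYK2 and a complex that holds STAT2 and IRF9, which binds a DNA element called the interferon-stimulated response element (ISRE). Interferon gamma binds IFNGR and acts through JAK1 and JAK2 on a DNA element called the gamma-activated site (GAS), and through the induced factor IRF1. Many of the target genes are also transcribed at a low level in uninfected tissue, in hepatocytes as well as in macrophages and endothelial cells of the liver.

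Depth lay between 25506471 and 65579038 counts a library, and 16312 genes passed the filter on low counts, all 45 members among them. The lowest count of a member in any library was 8. Plin2 was lower in Plin2-null than in Plin2+/+ libraries, 16.5-fold in fasted and 13.2-fold in fed mice, with no overlap. All 8 hepatocyte markers were tested, and albumin (Alb) averaged 75889 ± 10255 and 99064 ± 9193 TPM in fasted Plin2-null and Plin2+/+ livers, and 92054 ± 11078 and 102426 ± 22125 TPM in fed ones (SD, n = 5 each). TPM, a level per length of transcript, compares genes. CPM, used here for single libraries, is a count scaled to library size and compares libraries but not genes. Gene coordinates are those of GRCm38. Some libraries stood apart on the members. Among fed livers, Plin2-null replicate 2 was the highest of its group for 38 of 45 members, against 23.9% of all genes, and Plin2+/+ replicate 5 for 32, against 21.2%. Among fasted livers, Plin2-null replicate 2 was the highest for 29 members, against 18.8%, and Plin2+/+ replicate 3 the lowest for 34, against 21.5%.

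The DNA before the start of 8 members is shown because it holds matches to the elements that the pathway is known for. RefSeq promoter windows of GRCm38.p6, from 250 bases before the start to 50 after it, were found for 33 of the 45 members. An ISRE-type core was searched as GAAA, any 2 bases and GAAA on both strands, so also as TTTC, any 2 bases and TTTC. A GAS-type core was searched as TTC, any 3 bases and GAA, which reads the same on both strands. Matches to each can overlap one another. Of the 33 genes, 18 held an ISRE-type match (54.5%; 12 of 22 type I and 6 of 11 gamma-type), against 3.99% of 27025 genes with a window. A GAS-type match stood in 9 (27.3%; 4 of 22 type I and 5 of 11 gamma-type), against 9.55%. Over all 32851 windows the shares were 3.44% and 8.30%. Each line gives the 160 bases before the start, 5′ to 3′ along the gene's strand, with matches in capitals.
Isg15 (chr4:156200819-156200978, minus strand): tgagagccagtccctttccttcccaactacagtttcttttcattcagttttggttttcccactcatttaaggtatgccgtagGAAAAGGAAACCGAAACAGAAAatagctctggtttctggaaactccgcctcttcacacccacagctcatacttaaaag
Ifit1 (chr19:34640729-34640888, plus strand): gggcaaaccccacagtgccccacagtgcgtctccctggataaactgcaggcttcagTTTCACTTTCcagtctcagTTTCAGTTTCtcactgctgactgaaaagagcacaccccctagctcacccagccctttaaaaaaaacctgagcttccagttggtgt
Rsad2 (chr12:26456453-26456612, minus strand): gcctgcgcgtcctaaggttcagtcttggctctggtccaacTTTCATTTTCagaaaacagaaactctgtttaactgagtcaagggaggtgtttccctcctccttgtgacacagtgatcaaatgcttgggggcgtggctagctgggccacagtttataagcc
Oas3 (chr5:120777660-120777819, minus strand): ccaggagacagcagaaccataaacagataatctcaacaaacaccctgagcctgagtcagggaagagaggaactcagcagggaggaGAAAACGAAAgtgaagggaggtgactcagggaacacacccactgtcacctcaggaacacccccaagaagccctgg
Gbp2 (chr3:142620503-142620662, plus strand): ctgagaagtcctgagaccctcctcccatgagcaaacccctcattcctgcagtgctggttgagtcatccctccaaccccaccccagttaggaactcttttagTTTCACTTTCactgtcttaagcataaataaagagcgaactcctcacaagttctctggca
Gbp7 (chr3:142530176-142530335, plus strand): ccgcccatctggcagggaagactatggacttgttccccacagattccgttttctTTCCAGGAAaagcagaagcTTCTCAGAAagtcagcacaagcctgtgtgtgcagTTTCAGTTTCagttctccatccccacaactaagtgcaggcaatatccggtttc
Irgm2 (chr11:58214817-58214976, plus strand): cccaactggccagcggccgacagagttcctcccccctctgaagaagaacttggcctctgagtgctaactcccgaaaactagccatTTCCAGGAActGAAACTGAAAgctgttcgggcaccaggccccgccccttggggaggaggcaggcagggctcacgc
Igtp (chr11:58199396-58199555, plus strand): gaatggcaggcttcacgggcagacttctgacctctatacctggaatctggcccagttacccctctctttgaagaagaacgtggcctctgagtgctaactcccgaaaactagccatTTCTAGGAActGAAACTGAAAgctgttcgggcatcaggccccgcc
Isg15 had 3 overlapping ISRE-type matches, beginning 78, 72 and 66 bases before the start, which merge into 1 run of capitals. Ifit1 had 2, beginning 104 and 85 bases before it. Rsad2, Oas3 and Gbp2 had 1 each. Gbp7, Irgm2 and Igtp carried both kinds, with the GAS-type letters 5′ of the ISRE-type ones. In Igtp the matches began 45 and 34 bases before the start, and in Irgm2, its neighbour on chromosome 11, 75 and 64 bases before it. The RefSeq start of Irgm2 lies within the longer gene annotated for the counts. A match describes these letters only.

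**Figure D1:**
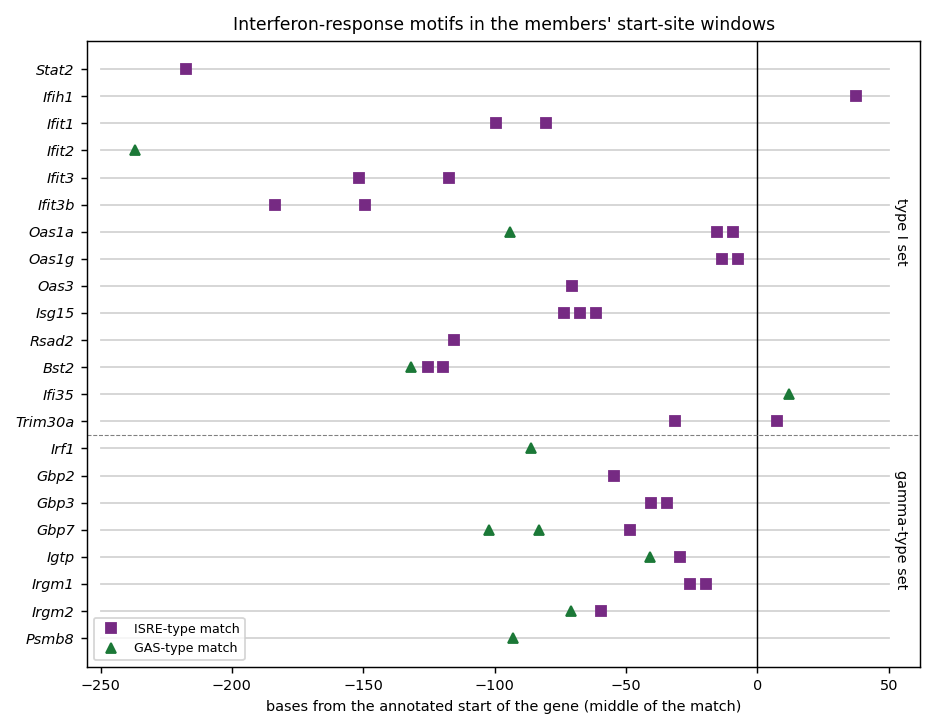
Matches to the ISRE-type (squares) and GAS-type (triangles) cores by distance in bases from the annotated start, for the members with any match; Trim30a has 2 windows drawn on 1 line. Most matches lie within 160 bases before the start, and Oas1a, Bst2, Gbp7, Igtp and Irgm2 carry both kinds.

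Nearly all of these genes were lower in fasted than in fed livers, in both genotypes. In Plin2-null livers 39 of 45 members were lower in fasted than in fed mice, against 18.1% of all genes called lower, and 0 were higher, against 18%. In Plin2+/+ livers 42 of 45 were lower, against 21.7%, and 0 were higher, against 20.9%. The median log2 fold change of fasting was -1.07 over the members in Plin2-null and -1.39 in Plin2+/+ livers, while over all genes it was -0.01 in each. By unadjusted p under 0.05, 39 members differed in Plin2-null livers, against 45.4% of all genes, and 44 in Plin2+/+ livers, against 50%, and no member was called higher by DESeq2 or limma voom either. The 39 genes lower in Plin2-null livers were all lower in Plin2+/+ livers too. Rsad2, Ifi35 and Tap1 were called in Plin2+/+ livers only, and Irf9, Usp18 and Lgals3bp in neither; none of these differences between genotypes passed the test of the difference itself. Fasted and fed libraries did not overlap for 25 members in Plin2-null livers, against 11.8% of all genes, and for 39 in Plin2+/+ livers, against 13.5%. In bulk tissue, fewer cells of a type and less RNA per cell cannot be told apart. Of 13 Kupffer cell and macrophage markers, 6 were lower and 1 higher in fasted Plin2-null livers, and 9 lower and 1 higher in fasted Plin2+/+ livers, with median log2 fold changes of -0.42 and -0.64. Their summed level was 435 to 542 CPM in fasted and 416 to 946 CPM in fed Plin2-null livers, and 314 to 539 CPM in fasted and 504 to 679 CPM in fed Plin2+/+ livers. Their part in the members' changes was not tested.

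**Figure D2:**
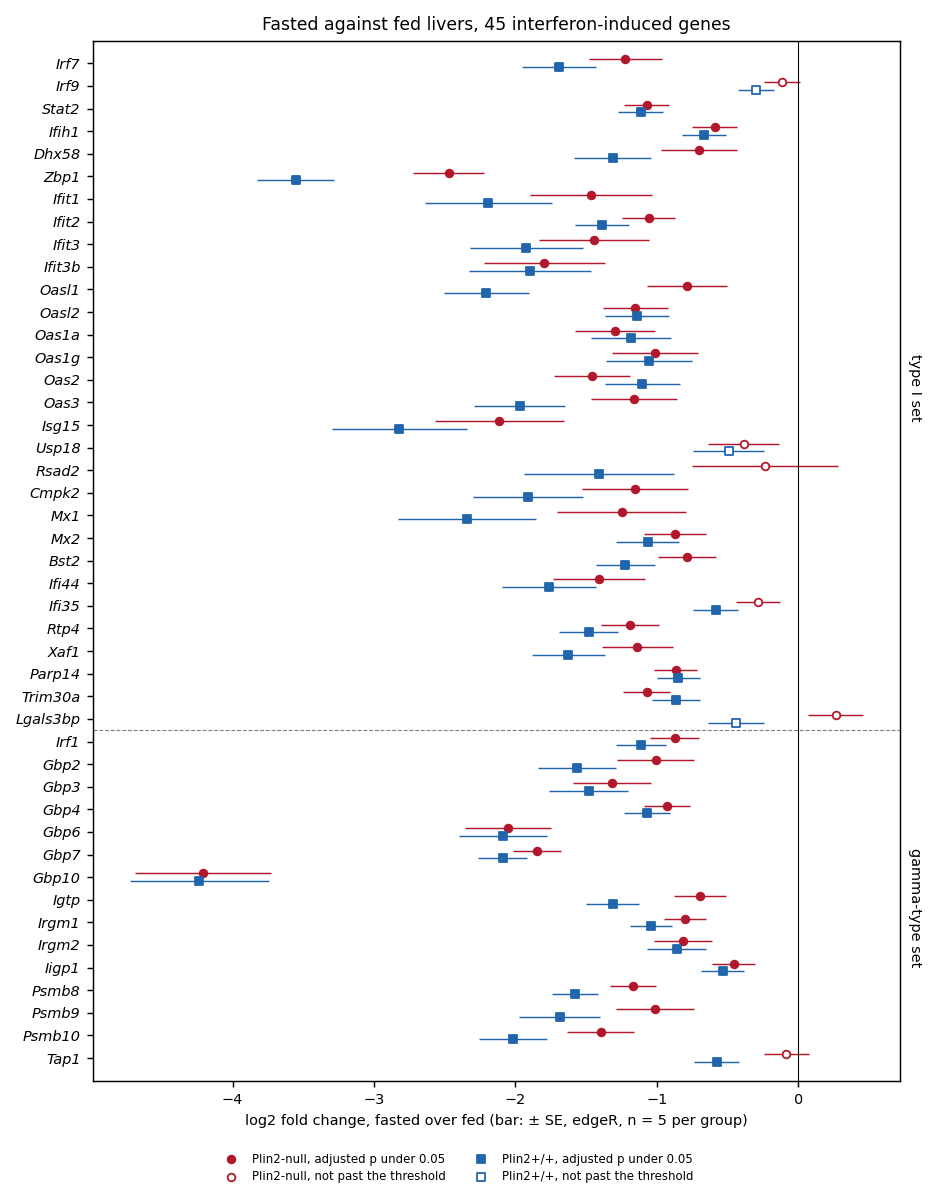
Log2 fold change of fasted over fed livers with its SE for each member, in Plin2-null (circles) and Plin2+/+ (squares) mice; filled symbols pass an adjusted p of 0.05. Nearly all symbols lie left of 0, the largest falls being those of Gbp10 and Zbp1, while Lgals3bp in Plin2-null livers lies right of 0.

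By set, the type I genes had medians of -1.11 in Plin2-null and -1.35 in Plin2+/+ livers, with 25 and 27 of 30 lower. The gamma-type genes had medians of -1.01 and -1.48, with 14 and 15 of 15 lower. Beside these counts, and those of each family below, stand 18.1% and 21.7% of all genes called lower in fasted Plin2-null and Plin2+/+ livers. Beside families without overlap stand 11.8% and 13.5% of all genes. Summed over the type I set, the 5 fasted Plin2-null libraries held 288, 340.5, 204, 375 and 342 TPM and the fed ones 634, 1098, 509, 526 and 460.4 TPM. In Plin2+/+ livers the type I sums were 252, 174, 146, 234 and 289.5 TPM fasted and 537, 484, 469, 483 and 760.5 TPM fed. Within each genotype every fasted sum lay below every fed one. The gamma-type sums were 284, 319, 170.2, 286 and 285 TPM in fasted and 482, 691, 504, 634 and 424 TPM in fed Plin2-null livers. They were 294, 187, 128, 233 and 245 TPM in fasted and 516, 436, 421, 403 and 521 TPM in fed Plin2+/+ livers, again with no overlap. Such sums weigh the most abundant members most, and TPM and CPM scale the libraries differently. In Plin2-null fasted replicate 3, Irf7 had the lowest TPM of its group (6.98) and the highest CPM (16.1). The low sums of that library may thus lie partly in the scale. By limma on log2(TPM + 1), the median log2 fold change of fasting over all genes was -0.16 in Plin2-null and -0.08 in Plin2+/+ livers. Part of the gap between fasted and fed sums may therefore be scale too. Over all 20 libraries Iigp1 averaged 158.6 TPM in the gamma-type set, and Bst2 and Lgals3bp 86.0 and 67.8 TPM in the type I set.

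Among the transcription factors of the pathway, 2 of 3 were lower in each genotype. Stat2 (chr10:128270559-128292849, plus strand), the STAT that is particular to type I and III signalling, had 44.96, 50.8, 40.2, 58.3 and 40.6 CPM in fasted and 116, 93.7, 83.8, 87.3 and 114 CPM in fed Plin2-null livers. In Plin2+/+ livers it had 44.3, 36.6, 24.8, 48.8 and 49.6 CPM fasted and 89.0, 103, 85.3, 89.3 and 74.7 CPM fed. Every fasted library was below every fed one, and the log2 fold change was -1.07 ± 0.16 (SE, adjusted p = 1.56e-05) in Plin2-null and -1.11 ± 0.16 (adjusted p = 7.47e-06) in Plin2+/+ livers. Irf7 (chr7:141262706-141266481, minus strand), the factor that amplifies interferon alpha production, had 14.5, 15.6, 16.1, 13.5 and 15.0 CPM in fasted and 38.5, 66.7, 27.2, 19.6 and 22.4 CPM in fed Plin2-null livers. It had 8.84, 9.47, 8.17, 11.9 and 11.6 CPM in fasted and 27.1, 25.7, 35.3, 26.4 and 46.8 CPM in fed Plin2+/+ livers. Fasted libraries were again all below the fed ones, with log2 fold changes of -1.22 ± 0.26 (adjusted p = 0.000966) in Plin2-null and -1.69 ± 0.26 (adjusted p = 3.42e-05) in Plin2+/+ livers. Irf9 (chr14:55603571-55610030, plus strand), the DNA-binding partner of STAT2, had 29.6, 40.1, 27.9, 32.1 and 27.7 CPM in fasted and 37.8, 42.8, 28.2, 33.2 and 28.3 CPM in fed Plin2-null livers. It had 27.1, 25.0, 19.3, 27.3 and 28.7 CPM in fasted and 31.3, 31.2, 29.3, 30.8 and 34.4 CPM in fed Plin2+/+ livers. The Plin2-null pair overlapped and the Plin2+/+ pair just did not, and Irf9 was called in neither, with -0.11 ± 0.13 (adjusted p = 0.517) in Plin2-null and -0.30 ± 0.13 (adjusted p = 0.0648) in Plin2+/+ livers. It passed the threshold in Plin2+/+ livers under 6 of 30 other settings, among them without Plin2+/+ fasted replicate 5, Plin2-null fasted replicate 2 or Plin2-null fed replicate 2. Irf9 overlaps Rnf31 on the same strand and Irf7 overlaps Phrf1 on the other.

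All 3 sensors among the members were lower in fasted livers of both genotypes. Zbp1 (chr2:173206612-173218923, minus strand) encodes a receptor for left-handed double-stranded nucleic acid that can start cell death. It had 2.24, 2.63, 2.29, 1.97 and 2.19 CPM in fasted and 10.7, 22.9, 11.7, 8.91 and 8.57 CPM in fed Plin2-null livers. In Plin2+/+ livers it had 0.972, 0.996, 0.501, 0.729 and 1.14 CPM fasted and 7.81, 11.5, 9.30, 8.68 and 14.5 CPM fed. No groups overlapped, and Zbp1 was 5.55-fold lower in fasted Plin2-null (-2.47 ± 0.25, adjusted p = 1.35e-07) and 11.7-fold lower in fasted Plin2+/+ livers (-3.55 ± 0.27, adjusted p = 2.55e-09). Dhx58 (chr11:100694884-100704271, minus strand), which encodes LGP2, a regulator of the RIG-I-like receptors, had 8.82, 10.3, 8.12, 8.69 and 9.64 CPM in fasted and 15.8, 28.7, 10.3, 10.4 and 8.95 CPM in fed Plin2-null livers. It had 4.70, 4.10, 3.24, 5.36 and 6.61 CPM in fasted and 10.7, 10.9, 10.7, 9.03 and 18.1 CPM in fed Plin2+/+ livers. Libraries overlapped in the Plin2-null pair, where the log2 fold change was -0.70 ± 0.27 (adjusted p = 0.0441) and the call held in 15 of 30 other settings. It was lost without any of the Plin2-null fasted replicates, Plin2-null fed replicate 1 or 2, Plin2+/+ fasted replicate 1 or 4, or Plin2+/+ fed replicate 1, 2 or 3. Libraries did not overlap in the Plin2+/+ pair (-1.31 ± 0.27, adjusted p = 0.000617). Ifih1 (chr2:62595798-62646255, minus strand), which encodes MDA5, the sensor of long double-stranded RNA, had 30.4, 36.3, 28.8, 23.6 and 25.0 CPM in fasted and 36.9, 64.6, 34.5, 44.4 and 36.5 CPM in fed Plin2-null livers. It had 25.4, 25.2, 21.5, 21.9 and 23.3 CPM in fasted and 35.0, 29.4, 35.1, 39.0 and 47.6 CPM in fed Plin2+/+ livers. Fasted replicate 2 overlapped the fed range in Plin2-null livers, no library did in Plin2+/+ livers, and Ifih1 changed by -0.59 ± 0.16 (adjusted p = 0.00541) in Plin2-null and -0.67 ± 0.16 (adjusted p = 0.00169) in Plin2+/+ livers.

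The IFIT genes lie together on chromosome 19 and encode proteins that bind foreign RNA ends and hold back its translation. All 4 members were lower in both genotypes. Ifit3 (chr19:34583531-34588731, plus strand), the most abundant of them by TPM, had 7.61, 11.8, 5.95, 7.22 and 9.31 CPM in fasted and 20.7, 47.2, 15.7, 20.2 and 10.1 CPM in fed Plin2-null livers. In Plin2+/+ livers it had 7.82, 7.33, 2.42, 5.66 and 4.21 CPM fasted and 24.4, 10.7, 18.7, 16.4 and 34.3 CPM fed. The Plin2-null groups overlapped and the Plin2+/+ groups did not, with log2 fold changes of -1.44 ± 0.39 (adjusted p = 0.00751) and -1.92 ± 0.40 (adjusted p = 0.000778). Ifit1 (chr19:34640871-34650009, plus strand) had 6.65, 10.6, 4.74, 4.80 and 6.66 CPM in fasted and 17.4, 38.1, 12.8, 17.4 and 7.08 CPM in fed Plin2-null livers. It had 4.77, 4.08, 1.27, 4.16 and 2.43 CPM in fasted and 19.3, 7.52, 12.5, 10.6 and 26.5 CPM in fed Plin2+/+ livers. One fasted Plin2-null library, replicate 2, lay above the lowest fed one, and the call in that genotype ended without Plin2-null fed replicate 2 (log2 fold change -1.03, adjusted p = 0.0520). The log2 fold changes of Ifit1 were -1.47 ± 0.43 (adjusted p = 0.0127) and -2.19 ± 0.45 (adjusted p = 0.000701). Ifit3b (chr19:34607970-34613401, plus strand) had 1.36, 3.63, 1.36, 2.14 and 2.00 CPM in fasted and 5.28, 16.1, 5.50, 6.76 and 3.04 CPM in fed Plin2-null livers, and 2.55, 2.63, 0.885, 1.89 and 1.37 CPM in fasted and 9.33, 3.10, 5.36, 6.92 and 10.3 CPM in fed Plin2+/+ livers. Again only the Plin2-null pair overlapped (-1.80 ± 0.43 in Plin2-null and -1.90 ± 0.43 in Plin2+/+ livers). Ifit3b is a near copy of Ifit3, so reads may be shared and both are uncertain. Ifit2 changed by -1.06 ± 0.19 and -1.39 ± 0.19.

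The OAS genes, on chromosome 5, encode enzymes that answer double-stranded RNA by making the messenger that activates RNase L, an activity that Oasl1 lacks. All 6 were lower in fasted livers of both genotypes. Oasl1 (chr5:114923240-114937915, plus strand), in mice known to limit translation of Irf7, had 9.94, 10.4, 6.65, 5.92 and 8.60 CPM in fasted and 14.8, 27.2, 10.3, 11.0 and 8.41 CPM in fed Plin2-null livers. It had 2.58, 1.95, 1.53, 3.39 and 3.54 CPM in fasted and 12.1, 10.5, 11.1, 8.78 and 17.0 CPM in fed Plin2+/+ livers. Overlap was seen in the Plin2-null pair and not in the Plin2+/+ pair, with log2 fold changes of -0.79 ± 0.28 (adjusted p = 0.0346) and -2.20 ± 0.30 (adjusted p = 7.53e-06). The Plin2-null call held in 23 of 30 other settings and was lost without Plin2-null fasted replicate 3, 4 or 5 or fed replicate 1 or 2. Oas1a (chr5:120896256-120907521, minus strand) had 1.45, 2.37, 0.972, 2.46 and 1.44 CPM in fasted and 4.21, 8.14, 3.27, 2.88 and 3.08 CPM in fed Plin2-null livers, and 1.67, 1.63, 1.83, 1.41 and 2.04 CPM in fasted and 3.08, 2.67, 4.16, 4.64 and 5.04 CPM in fed Plin2+/+ livers. Oasl2 (chr5:114896936-114912234, plus strand) had 3.57, 5.58, 3.46, 5.92 and 4.52 CPM in fasted and 10.8, 17.2, 8.41, 7.67 and 7.34 CPM in fed Plin2-null livers, and 6.17, 4.04, 3.24, 4.29 and 3.92 CPM in fasted and 9.24, 6.81, 9.81, 10.2 and 11.7 CPM in fed Plin2+/+ livers. Neither gene's fasted libraries reached its fed ones in either genotype. Oas1a changed by -1.30 ± 0.28 and -1.18 ± 0.28, Oasl2 by -1.15 ± 0.23 and -1.14 ± 0.23, Oas2 by -1.46 ± 0.27 and -1.10 ± 0.27, and Oas1g by -1.01 ± 0.30 and -1.06 ± 0.30 in Plin2-null and Plin2+/+ livers. Oas3 changed by -1.16 ± 0.31 in Plin2-null and -1.97 ± 0.32 in Plin2+/+ livers, at TPM levels below 2 in every library. Oas1g is similar in sequence to Oas1a, so their values are uncertain.

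Isg15 (chr4:156199424-156200818, minus strand) encodes a ubiquitin-like protein that is attached to other proteins and also released. It had 3.08, 6.46, 3.26, 3.17 and 4.15 CPM in fasted and 15.2, 44.1, 9.58, 10.4 and 7.99 CPM in fed Plin2-null livers. In Plin2+/+ livers it had 2.06, 1.30, 1.00, 2.61 and 2.56 CPM fasted and 9.73, 9.99, 11.4, 9.76 and 25.6 CPM fed. Every fasted library lay below the fed ones of its genotype, and 1 library stood far above the others in each fed group, replicate 2 in Plin2-null and replicate 5 in Plin2+/+ livers. The log2 fold changes were -2.11 ± 0.45 (adjusted p = 0.00139) in Plin2-null and -2.82 ± 0.48 (adjusted p = 0.000125) in Plin2+/+ livers, and -1.42 in Plin2-null livers without fed replicate 2 (adjusted p = 0.00244). Usp18 (chr6:121245906-121270917, plus strand), which removes ISG15 and blocks signalling at IFNAR2, had 7.95, 12.5, 6.96, 7.30 and 9.62 CPM in fasted and 9.56, 20.6, 8.04, 13.4 and 6.47 CPM in fed Plin2-null livers. It had 7.46, 6.59, 7.43, 7.16 and 6.17 CPM in fasted and 9.43, 6.97, 9.27, 8.43 and 14.8 CPM in fed Plin2+/+ livers. The groups overlapped and Usp18 was not called, with -0.39 ± 0.25 (adjusted p = 0.243) in Plin2-null and -0.49 ± 0.25 (adjusted p = 0.124) in Plin2+/+ livers.

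Of the 12 other antiviral effectors, 9 were lower in fasted Plin2-null and 11 in fasted Plin2+/+ livers. Bst2 (chr8:71534255-71537456, minus strand), which encodes tetherin, a protein that holds budding virus at the cell surface, had 17.0, 22.6, 27.3, 26.0 and 24.8 CPM in fasted and 44.4, 53.5, 37.7, 29.0 and 38.0 CPM in fed Plin2-null livers. It had 12.9, 15.0, 11.7, 23.4 and 20.7 CPM in fasted and 28.4, 44.5, 38.3, 30.8 and 52.8 CPM in fed Plin2+/+ livers. No fasted library reached a fed one of its genotype, and the log2 fold changes were -0.78 ± 0.20 (adjusted p = 0.00484) and -1.22 ± 0.21 (adjusted p = 7.05e-05). Lgals3bp (chr11:118392751-118402092, minus strand), a secreted glycoprotein that binds galectins, behaved differently. It had 87.9, 92.3, 88.7, 103 and 91.2 CPM in fasted and 89.5, 115, 75.8, 52.4 and 53.1 CPM in fed Plin2-null livers, and 43.2, 46.2, 46.8, 63.6 and 83.2 CPM in fasted and 62.7, 81.7, 73.5, 70.0 and 96.5 CPM in fed Plin2+/+ livers. Both pairs overlapped, and neither 0.26 ± 0.20 (adjusted p = 0.312) in Plin2-null nor -0.44 ± 0.20 (adjusted p = 0.0768) in Plin2+/+ livers passed the test. It was called lower in Plin2+/+ livers without Plin2+/+ fasted replicate 5 or Plin2-null fed replicate 2. Ifi35 (chr11:101448407-101458698, plus strand), an interferon-induced partner of NMI, had 11.4, 14.2, 13.2, 12.3 and 13.4 CPM in fasted and 15.1, 22.1, 14.4, 12.5 and 14.5 CPM in fed Plin2-null livers. It had 8.14, 8.12, 10.3, 10.0 and 13.8 CPM in fasted and 13.5, 14.8, 14.9, 13.0 and 19.3 CPM in fed Plin2+/+ livers. Both pairs overlapped, with log2 fold changes of -0.29 ± 0.16 (adjusted p = 0.159) in Plin2-null and -0.58 ± 0.16 (adjusted p = 0.0048) in Plin2+/+ livers. Rsad2 (chr12:26442746-26456452, minus strand), which encodes viperin, an enzyme that makes a chain-terminating nucleotide, had 14.9, 24.3, 11.5, 13.9 and 11.7 CPM in fasted and 18.1, 37.3, 13.4, 16.6 and 4.37 CPM in fed Plin2-null livers. In Plin2+/+ livers Rsad2 had 15.9, 9.60, 3.19, 6.43 and 5.40 CPM fasted and 35.4, 9.02, 13.5, 13.4 and 36.8 CPM fed. The groups overlapped in both genotypes, and -0.23 ± 0.52 (adjusted p = 0.758) was not past the threshold in Plin2-null livers. In Plin2+/+ livers -1.41 ± 0.53 (adjusted p = 0.0401) was, but that call held in 21 of 30 other settings and was lost without any of Plin2+/+ fasted replicates 2 to 5 or fed replicates 1 and 5. Its neighbour Cmpk2, a mitochondrial nucleotide kinase, changed by -1.15 ± 0.38 and -1.91 ± 0.39. The genes of dynamin-like GTPases Mx1 (-1.25 ± 0.46 and -2.34 ± 0.49) and Mx2 (-0.87 ± 0.22 and -1.07 ± 0.22), whose products block virus replication in mice that carry working copies, were lower in both genotypes. C57BL/6 mice carry disrupted copies of both, and the annotation lists Mx2 as a polymorphic pseudogene. In Plin2-null livers the Mx1 call was lost without any fasted replicate but 2 or without fed replicate 2, 3 or 4, and the Cmpk2 call without fasted replicate 3 or 5 or fed replicate 2. Also lower were Rtp4 (-1.19 ± 0.21 and -1.48 ± 0.21), Xaf1 (-1.14 ± 0.25 and -1.63 ± 0.26), Ifi44 (-1.41 ± 0.33 and -1.76 ± 0.33), the ADP-ribosyltransferase gene Parp14 (-0.86 ± 0.15 and -0.85 ± 0.15) and Trim30a (-1.07 ± 0.17 and -0.86 ± 0.17). Rtp4 shares its locus with Masp1 on the other strand, and Masp1 is a gene that liver expresses, so its counts are uncertain.

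In the gamma-type set, Irf1 (chr11:53770014-53778374, plus strand), the factor through which interferon gamma reaches many later targets, had 13.0, 16.9, 16.9, 21.2 and 13.9 CPM in fasted and 23.8, 31.0, 37.0, 31.7 and 26.6 CPM in fed Plin2-null livers. It had 14.0, 13.6, 9.00, 19.7 and 14.4 CPM in fasted and 33.6, 31.9, 29.99, 21.9 and 35.1 CPM in fed Plin2+/+ livers. There was no overlap, and the log2 fold changes were -0.87 ± 0.17 (adjusted p = 0.00047) and -1.11 ± 0.18 (adjusted p = 2.75e-05).

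The guanylate-binding proteins are large GTPases that coat and break open vacuoles of intracellular microbes. All 6 were lower in fasted livers, with no overlap between fasted and fed libraries in either genotype. Gbp10 (chr5:105215699-105239533, minus strand) changed most of all members. It had 0.846, 2.20, 0.933, 1.32 and 0.660 CPM in fasted and 22.3, 51.6, 14.5, 13.3 and 8.46 CPM in fed Plin2-null livers. In Plin2+/+ livers it had 1.31, 0.977, 0.295, 1.03 and 0.491 CPM fasted and 15.0, 13.1, 15.2, 14.0 and 20.8 CPM fed. Gbp10 was 18.5-fold lower in fasted Plin2-null (-4.21 ± 0.48, adjusted p = 2.17e-06) and 18.8-fold lower in fasted Plin2+/+ livers (-4.23 ± 0.49, adjusted p = 1.95e-06), and its log2 fold change was -3.62 in Plin2-null livers without fed replicate 2. Gbp7 (chr3:142530342-142550149, plus strand), the most abundant of the 6 by TPM, had 10.6, 11.7, 7.70, 8.32 and 9.41 CPM in fasted and 31.3, 47.2, 29.5, 37.6 and 26.0 CPM in fed Plin2-null livers. It had 8.27, 6.54, 4.19, 5.70 and 6.79 CPM in fasted and 27.7, 24.1, 27.2, 23.9 and 31.4 CPM in fed Plin2+/+ livers. The 5 fasted libraries of each genotype lay well below the fed ones, with log2 fold changes of -1.85 ± 0.17 (adjusted p = 3.28e-08) and -2.09 ± 0.17 (adjusted p = 5.84e-09). Gbp3 (chr3:142560026-142573209, plus strand) had 6.22, 8.44, 6.68, 6.51 and 6.38 CPM in fasted and 16.4, 34.9, 10.7, 11.3 and 11.9 CPM in fed Plin2-null livers. Gbp3 had 6.46, 5.77, 3.30, 5.79 and 4.57 CPM in fasted and 12.4, 9.81, 15.8, 14.9 and 19.5 CPM in fed Plin2+/+ livers. No fasted Gbp3 value reached a fed one. Gbp3 changed by -1.32 ± 0.28 and -1.48 ± 0.28, Gbp2 by -1.01 ± 0.27 and -1.56 ± 0.28, Gbp4 by -0.93 ± 0.16 and -1.07 ± 0.16, and Gbp6 by -2.05 ± 0.31 and -2.09 ± 0.31 in Plin2-null and Plin2+/+ livers. Gbp6 and Gbp10 both overlap Gm43302 on their own strand, and Gbp4 overlaps Gbp8 and Gbp9, all close relatives, and Gbp7 overlaps a processed pseudogene, Gm43802, so the split of reads among them is uncertain.

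The immunity-related GTPases act on the same vacuoles. All 4 were lower in fasted livers, with median log2 fold changes of -0.75 in Plin2-null and -0.95 in Plin2+/+ livers, against -1.58 and -1.83 for the guanylate-binding proteins. Iigp1, with the highest TPM of all members, averaged 129.9 ± 27.9 TPM in fasted and 217 ± 44.3 TPM in fed Plin2-null livers, and 111 ± 32.2 TPM in fasted and 176 ± 24.9 TPM in fed Plin2+/+ livers (SD, n = 5 each). Its CPM were 366, 399.6, 298, 267 and 304 in fasted and 428, 479.7, 405, 571 and 361 in fed Plin2-null livers, and 324, 279.9, 179, 292 and 268 in fasted and 414, 350.5, 401, 333 and 447 in fed Plin2+/+ livers. The Plin2-null pair overlapped and the Plin2+/+ pair did not. Its log2 fold changes, -0.46 ± 0.15 (adjusted p = 0.0221) and -0.53 ± 0.15 (adjusted p = 0.00702), were the smallest among the members called in both genotypes, and the Plin2-null call was lost without fasted replicate 4 or 5 or fed replicate 4. Igtp (chr11:58199556-58207591, plus strand), also called Irgm3, had 28.5, 41.2, 27.9, 25.4 and 29.3 CPM in fasted and 40.2, 58.2, 49.4, 60.5 and 38.6 CPM in fed Plin2-null livers. The Plin2+/+ libraries of Igtp had 23.1, 17.8, 11.5, 24.6 and 19.1 CPM fasted and 59.2, 52.6, 44.7, 36.2 and 45.6 CPM fed. Fasted replicate 2 of the Plin2-null group overlapped the fed range, and the log2 fold changes were -0.70 ± 0.18 (adjusted p = 0.00508) and -1.31 ± 0.19 (adjusted p = 8.17e-06). Irgm2 (chr11:58199618-58222782, plus strand) had 55.7, 77.8, 40.6, 58.1 and 51.4 CPM in fasted and 81.8, 105, 119.8, 124 and 67.9 CPM in fed Plin2-null livers, and 62.6, 49.6, 24.7, 60.5 and 46.0 CPM in fasted and 84.1, 90.8, 90.9, 81.4 and 94.6 CPM in fed Plin2+/+ livers. Its Plin2-null pair overlapped, through fasted replicate 2, and its Plin2+/+ pair did not. Irgm2 (-0.81 ± 0.21 and -0.86 ± 0.21) and Irgm1 (-0.80 ± 0.15 and -1.04 ± 0.15), regulators that keep the other GTPases off the cell's own membranes, were lower as well. The annotated gene of Irgm2 overlaps that of Igtp on the same strand, so counts of these 2 are uncertain.

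**Figure D3:**
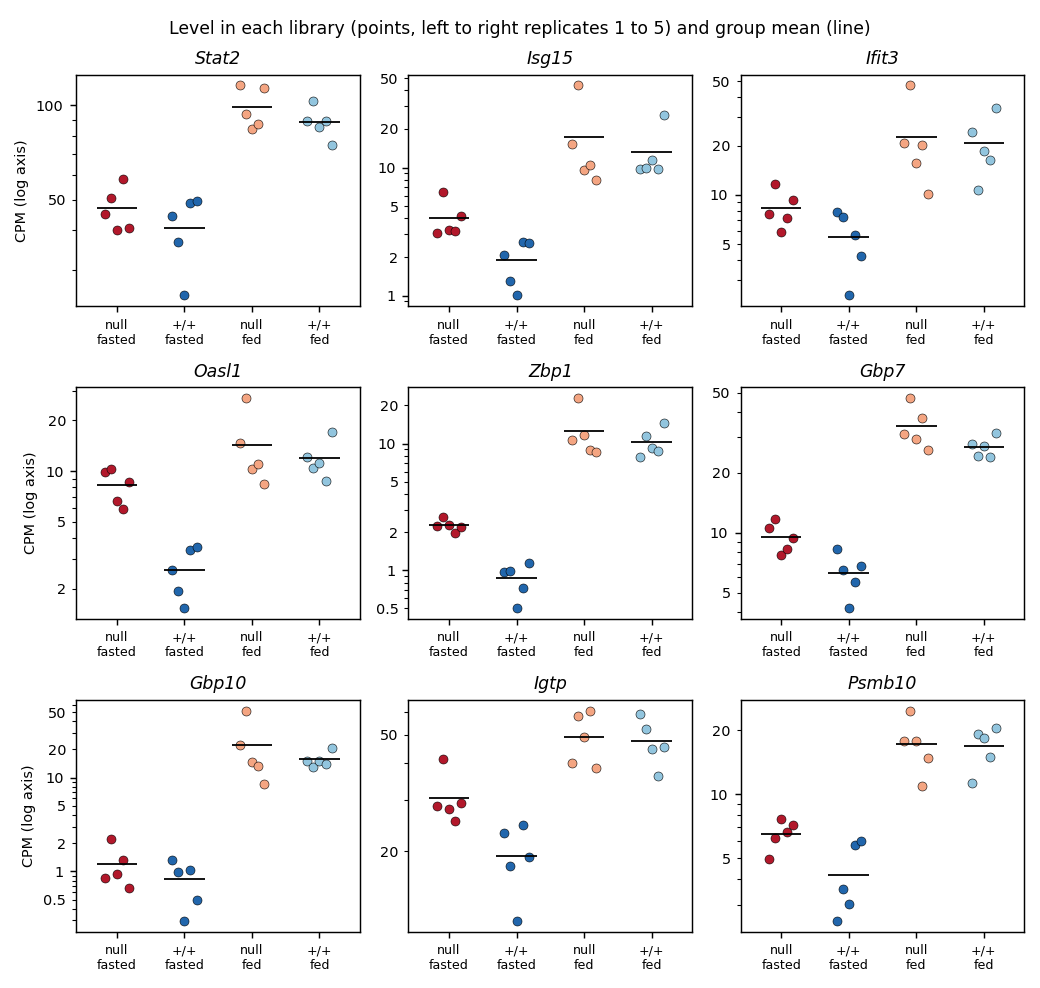
CPM in every library for 9 members on log axes, by group (points left to right are replicates 1 to 5, lines are group means). Fasted points lie below fed points in both genotypes for most panels, the Plin2-null fasted points of Oasl1 and Zbp1 lie above all Plin2+/+ fasted points, and Plin2-null fed replicate 2 is the top point of several panels.

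Psmb8, Psmb9 and Psmb10 encode the catalytic subunits that interferons place in the proteasome instead of the constitutive Psmb5, Psmb6 and Psmb7 products, and Tap1 encodes one chain of the peptide transporter that loads MHC class I. Psmb10 (chr8:105935735-105938444, minus strand) had 4.95, 6.23, 7.66, 6.65 and 7.14 CPM in fasted and 17.8, 24.6, 17.8, 10.9 and 14.8 CPM in fed Plin2-null livers. It had 2.53, 3.57, 3.04, 5.79 and 6.04 CPM in fasted and 11.3, 19.1, 18.4, 14.9 and 20.5 CPM in fed Plin2+/+ livers. The pairs did not overlap, and Psmb10 changed by -1.40 ± 0.23 (adjusted p = 8.57e-05) in Plin2-null and -2.02 ± 0.24 (adjusted p = 1.07e-06) in Plin2+/+ livers. Psmb8 (chr17:34197721-34201454, plus strand) had 5.50, 6.66, 6.30, 5.13 and 6.66 CPM in fasted and 11.4, 18.7, 13.8, 10.2 and 13.8 CPM in fed Plin2-null livers, and 3.32, 3.94, 4.01, 4.16 and 5.22 CPM in fasted and 10.1, 12.2, 13.9, 10.2 and 15.3 CPM in fed Plin2+/+ livers. Tap1 (chr17:34187553-34197225, plus strand) had 14.2, 14.8, 12.7, 20.9 and 16.9 CPM in fasted and 15.9, 22.5, 17.4, 15.9 and 12.7 CPM in fed Plin2-null livers, and 8.59, 9.56, 10.9, 10.8 and 13.9 CPM in fasted and 14.3, 16.0, 16.1, 13.4 and 20.1 CPM in fed Plin2+/+ livers. Psmb8 showed no overlap in either genotype, and Tap1 overlapped in both. Psmb8 changed by -1.17 ± 0.16 (adjusted p = 7.12e-06) and -1.58 ± 0.16 (adjusted p = 1.23e-07), and Psmb9 by -1.01 ± 0.27 (adjusted p = 0.00663) and -1.69 ± 0.28 (adjusted p = 7.33e-05). Tap1, which overlaps Psmb9 on the other strand, was called lower in Plin2+/+ (-0.58 ± 0.16, adjusted p = 0.00597) and not in Plin2-null livers (-0.08 ± 0.16, adjusted p = 0.712). Of the constitutive subunits, all 3 were higher in fasted Plin2-null livers, against 18% of all genes, led by Psmb5 (1.07 ± 0.26, adjusted p = 0.00365). In fasted Plin2+/+ livers, where 20.9% of all genes were higher, Psmb7 was the one called higher (0.60 ± 0.10, adjusted p = 7.03e-05). The TPM ratio of each induced subunit to its constitutive counterpart was taken in every library. Psmb10 over Psmb7 was 0.0968 ± 0.0177 in fasted and 0.354 ± 0.106 in fed Plin2-null livers, and 0.0552 ± 0.0241 in fasted and 0.329 ± 0.0646 in fed Plin2+/+ livers (SD, n = 5 each). Psmb8 over Psmb5 was 0.0428 ± 0.0126 in fasted and 0.194 ± 0.0357 in fed Plin2-null livers, and 0.0432 ± 0.0131 in fasted and 0.169 ± 0.0241 in fed Plin2+/+ livers. Psmb9 over Psmb6 was 0.0290 ± 0.00686 in fasted and 0.0872 ± 0.0266 in fed Plin2-null livers, and 0.0203 ± 0.00452 in fasted and 0.0724 ± 0.0139 in fed Plin2+/+ livers. Each ratio was lower in all 5 fasted than in all 5 fed libraries of its genotype, with an exact two-sided permutation p of 0.00794, the smallest that 5 against 5 can give, and 0.0159 adjusted over 12 such tests. In Plin2-null livers this outcome was fixed beforehand, since the 3 induced subunits were lower and the 3 constitutive ones higher, all without overlap. The ratio tests there add nothing to the levels. In Plin2+/+ livers the 3 induced subunits did not overlap either, and the 3 constitutive ones had log2 fold changes of 0.18 to 0.60. The ratio tests thus add little to the levels there too. Between genotypes none of the 6 comparisons passed the adjustment; the closest was Psmb10 over Psmb7 in fasted livers (exact permutation p = 0.0317, adjusted 0.0544).

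Between genotypes, no member passed the threshold in fed mice, and most lay higher in Plin2-null livers in fasted mice. In fasted livers 3 of 45 members were called higher in Plin2-null than in Plin2+/+ mice, against 1.51% of all genes, and 0 lower, against 1.73%. The log2 fold change was above 0 for 42 of 45, against 51.7% of all genes, with a median of 0.49 against 0.02, and 22 of 45 had an unadjusted p under 0.05, against 24.3% of all genes. Libraries did not overlap, with Plin2-null higher, for 8 members, against 1.87%: Irf7, Dhx58, Zbp1, Oasl1, Isg15, Lgals3bp, Igtp and Psmb9. In fed livers 0 of 45 were called, against 0.0123% of all genes higher and 0.00613% lower. There, 37 of 45 were above 0, against 50.6%, the median was 0.14, and only Gbp7 had an unadjusted p under 0.05, against 4.25% of all genes. That direction rested on 1 library: without Plin2-null fed replicate 2, 12 of 45 were above 0 and the median was -0.08. DESeq2 and limma voom called no member in fed livers.

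The 3 genes called in fasted livers were Oasl1, Zbp1 and Igtp. The Plin2-null libraries of Oasl1 (9.94, 10.4, 6.65, 5.92 and 8.60 CPM) all lay above the Plin2+/+ ones (2.58, 1.95, 1.53, 3.39 and 3.54 CPM), a 3.21-fold difference (1.68 ± 0.30, adjusted p = 0.013), called in 26 of 30 other settings. For Zbp1 the values were 2.24, 2.63, 2.29, 1.97 and 2.19 CPM in Plin2-null and 0.972, 0.996, 0.501, 0.729 and 1.14 CPM in Plin2+/+ livers, a 2.56-fold difference with no overlap (1.36 ± 0.27, adjusted p = 0.0155), called in 24 of 30. Igtp was 1.59-fold higher (0.67 ± 0.18, adjusted p = 0.0495), and its call held in 9 of 30. Next to the threshold were Lgals3bp (0.71 ± 0.20, adjusted p = 0.0515), Tap1 (0.57 ± 0.16, adjusted p = 0.0516), Gbp7 (0.60 ± 0.17, adjusted p = 0.0535), Dhx58 (0.93 ± 0.27, adjusted p = 0.0596) and Psmb8 (0.55 ± 0.16, adjusted p = 0.0601). In the OAS family, besides Oasl1, Oas1a (0.03 ± 0.29), Oas1g (-0.04 ± 0.32), Oas2 (-0.15 ± 0.27) and Oasl2 (0.09 ± 0.23) lay close to 0 and were not called, nor was Oas3 (0.89 ± 0.33). The number of members called turned on single libraries. It was 0 without Plin2-null fasted replicate 5 or without Plin2+/+ fasted replicate 2, and 1 without Plin2+/+ fasted replicate 3. It was 5 and 12 without Plin2+/+ fasted replicates 4 and 5, and 9 without Plin2-null fed replicate 2, which belongs to neither group compared and enters through the shared estimate of spread, the scaling and the filter.

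Some markers of other cell types also differed between the genotypes in fasted livers, where 1.51% of all genes were called higher and 1.73% lower. In fasted livers, neutrophil and monocyte markers summed to 10.3 to 13.6 CPM in Plin2-null and 5.78 to 8.27 CPM in Plin2+/+ livers, without overlap, and S100a8 (1.29 ± 0.32, adjusted p = 0.0334) and S100a9 (1.42 ± 0.23, adjusted p = 0.00494) were 2 of 6 such markers called higher. Of 13 Kupffer cell and macrophage markers 0 were called there, but 10 were above 0, with a median log2 fold change of 0.30, and 6 had an unadjusted p under 0.05. All 5 cholangiocyte markers were above 0, with a median of 0.67, 0 called and 3 at an unadjusted p under 0.05. Called higher were 1 of 5 B and plasma cell markers, Ms4a1 (1.44 ± 0.38), and 2 of 10 stellate cell markers, Colec11 (0.52 ± 0.13) and Des (0.67 ± 0.17). Of the 10 stellate cell markers 3 were below 0. Of 7 dendritic cell markers 1, Ccr9, was called lower (-1.46 ± 0.36), and 4 were above 0. Among 8 hepatocyte, 10 sinusoidal endothelial and 11 T and NK cell markers 0 were called. The part of these cell types in the members' differences was not tested.

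**Figure D4:**
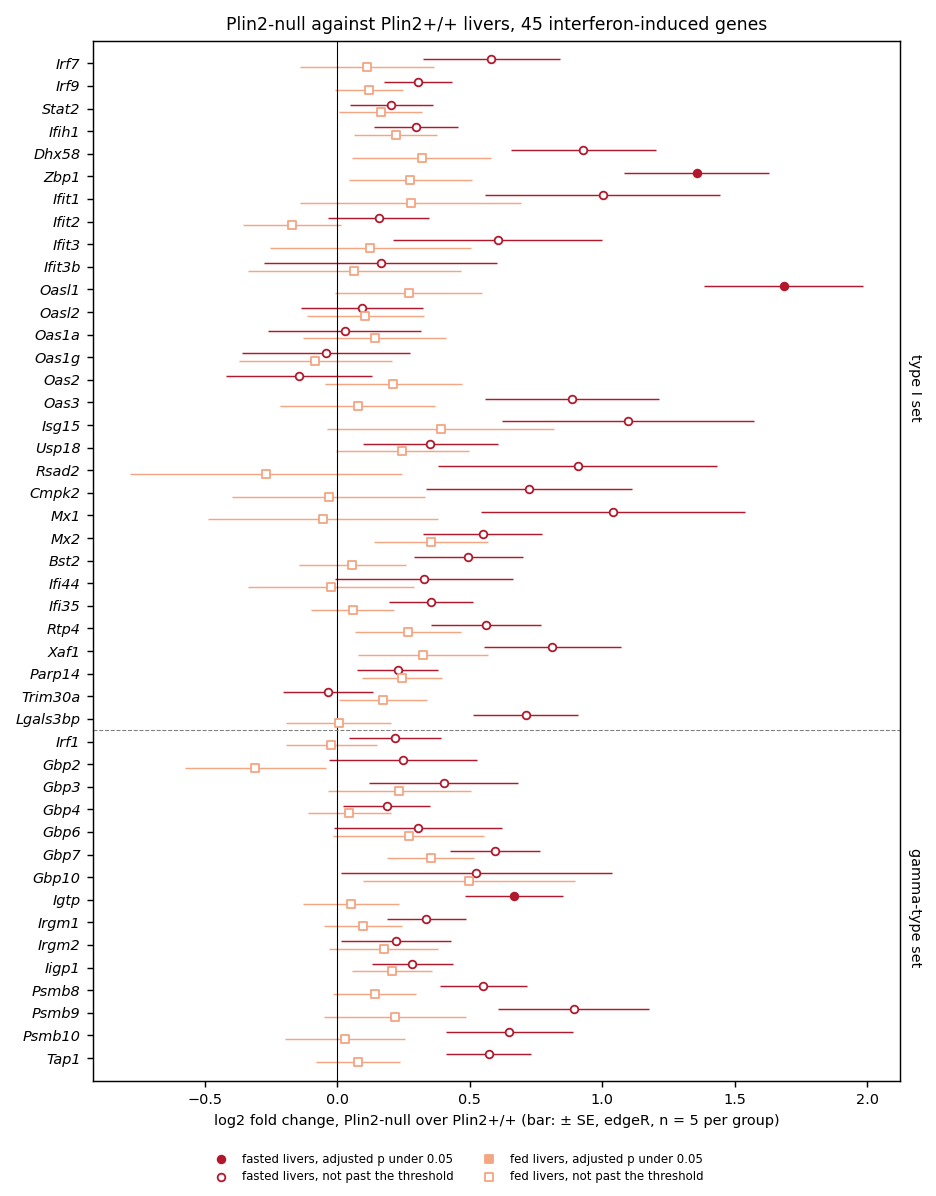
Log2 fold change of Plin2-null over Plin2+/+ livers with its SE for each member, in fasted (circles) and fed (squares) mice; filled symbols pass an adjusted p of 0.05. In fasted livers 42 of 45 symbols lie right of 0 and Oasl1, Zbp1 and Igtp are filled, while in fed livers none is.

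The difference of the differences was tested as an interaction. Its log2 value was above 0 for 40 of 45 members, against 51.8% of all genes, so the fold change of fasted over fed was less negative in Plin2-null livers or, for Lgals3bp, above 0, with a median of 0.30. With 1 library left out, 32 to 43 members were above 0 and the median was 0.23 to 0.56, the highest without Plin2-null fed replicate 2. No member passed the adjusted threshold in edgeR, and 0% of the 16312 genes did. Unadjusted p was under 0.05 for 5 of 45 members, against 13.8% of all genes. Oasl1 (1.42 ± 0.41, adjusted p = 0.239) and Zbp1 (1.08 ± 0.36, adjusted p = 0.253) had the largest values among those 5, followed by Lgals3bp (0.71 ± 0.28, adjusted p = 0.291), Igtp (0.62 ± 0.26) and Tap1 (0.49 ± 0.23). DESeq2 and limma voom called 0 members as well.

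Libraries of 1 group differed in many members at once. Their median coefficient of variation (SD over mean, in CPM) was 21.8% in Plin2-null fasted, 26.7% in Plin2+/+ fasted, 33.8% in Plin2-null fed and 19.6% in Plin2+/+ fed livers. Over all genes it was 17.5%, 20.5%, 18.1% and 17.2% in the same groups. Over the 11965 genes within the members' range of mean CPM it was 14.3%, 17.1%, 15.0% and 13.9%. In Plin2-null fed livers the type I set reached 41.2% and the gamma-type set 24.3%, and Isg15 was the most variable member there, at 86.7%. Replicate 2 of that group was the highest for 28 of 30 type I and 10 of 15 gamma-type members, and replicate 5 the lowest for 19 and 9. Kupffer cell and macrophage markers, summed over 13 genes, were 526, 946, 624, 633 and 416 CPM in the same 5 libraries, so replicate 2 was the highest and replicate 5 the lowest on these as well. In Plin2+/+ fed livers, where replicate 5 was the highest for 32 members, the same markers summed to 504, 613, 679, 606 and 574 CPM and replicate 5 was the fourth highest. Plin2-null fasted replicate 2, the highest for 29 members, ranked 2 from the top on the Kupffer cell and macrophage sum. Plin2+/+ fasted replicate 1, the highest for 20 members, was the lowest on it, at 314 CPM. On other lists, Plin2-null fed replicate 5 was the lowest for dendritic, T and NK, sinusoidal endothelial and stellate cells, but not for the rest. Replicate 2 of that group was the highest only for B and plasma cells. The part of any of these cells in the spread was not tested. Without Plin2-null fed replicate 2, 20 type I and 14 gamma-type members were lower in fasted Plin2-null livers, against 25 and 14 with it: the calls of Dhx58, Ifit1, Oasl1, Cmpk2 and Mx1 were lost.

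**Figure D5:**
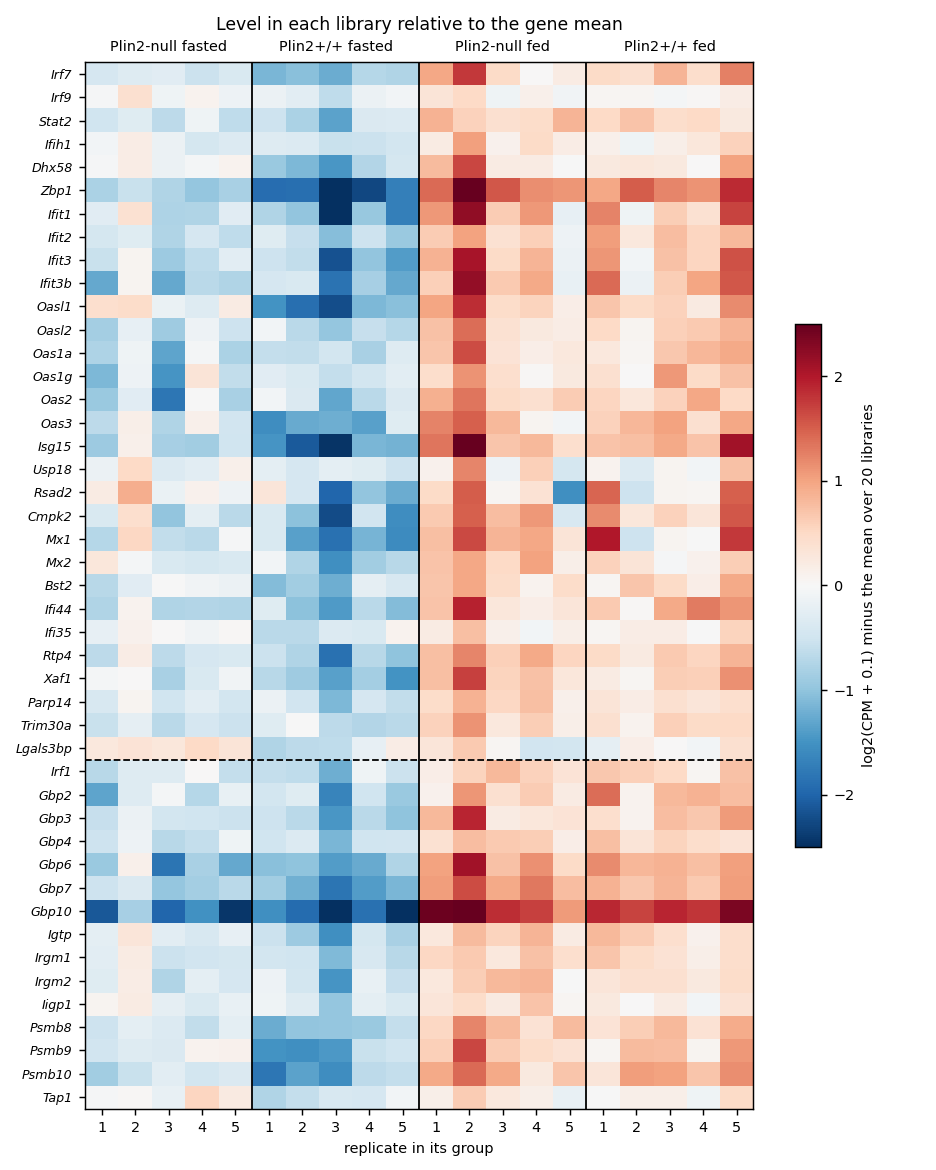
Level of each member (rows, type I set above the dashed line) in each library (columns, by group), as log2(CPM + 0.1) minus the gene's mean over the 20 libraries (blue below, red above). Fasted columns are mostly blue and fed columns mostly red, and within groups Plin2-null fed replicate 2 and Plin2+/+ fasted replicate 3 differ from their neighbours across most rows.

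Upstream of the members, the interferon genes that were listed had few counts or none, and other interferon genes were not read. Of 13 ligand genes none passed the filter. Ifnb1, Ifna1, Ifna2, Ifna4, Ifna5, Ifna6, Ifna11, Ifna12, Ifne, Ifnl2 and Ifnl3 had 0 counts in all 20 libraries, which allows up to 3 counts in a library at these depths. Ifng had 3, 4, 7 and 15 counts over the 5 libraries of Plin2-null fasted, Plin2+/+ fasted, Plin2-null fed and Plin2+/+ fed livers, and Ifnk had 3, 1, 0 and 0. Among the receptor and kinase genes, Tyk2 (-0.62 ± 0.16 and -0.74 ± 0.16) was lower in Plin2-null and Plin2+/+ livers, while the receptor chains Ifngr2 (0.76 ± 0.11 and 0.54 ± 0.11) and Ifnar2 (0.43 ± 0.13 and 0.43 ± 0.13) were higher. Of 17 sensors, adaptors and interferon regulatory factors, 7 were lower and 2 higher in fasted Plin2-null livers, against 18.1% and 18% of all genes. In fasted Plin2+/+ livers 6 were lower and 4 higher, against 21.7% and 20.9% of all genes. Irf5 (-1.80 ± 0.17 and -2.34 ± 0.18), the kinase gene Ikbke (-1.76 ± 0.19 and -2.21 ± 0.19) and Ddx58 (-0.81 ± 0.15 and -1.12 ± 0.15), which encodes RIG-I, were lower in both genotypes. The kinase gene Tbk1 (0.32 ± 0.07 and 0.53 ± 0.07) and the adaptor gene Myd88 (0.57 ± 0.11 and 0.36 ± 0.11) were higher in both. The sensors thus held genes called in each direction, with medians of -0.16 and -0.27 in Plin2-null and Plin2+/+ livers. Between genotypes in fasted livers, 1 of the 17 was called higher in Plin2-null mice (1.51% of all genes) and 0 lower (1.73%). It was Irf5 (0.83 ± 0.18, adjusted p = 0.0186), while the median log2 fold change of the 17 was -0.13.

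Further targets of the pathway were read from lists of other genes. Beside their counts stand 18.1% of all genes called lower and 18% higher in fasted Plin2-null livers, and 21.7% and 20.9% in fasted Plin2+/+ livers. Of 48 other interferon-induced genes tested, 32 were lower and 1 higher in fasted Plin2-null livers, and 39 lower and 1 higher in fasted Plin2+/+ livers. The GTPase gene Ifi47 (-2.03 ± 0.20 and -2.38 ± 0.20), Ifitm3 (-1.42 ± 0.17 and -1.80 ± 0.17), whose product blocks virus entry, and Uba7 (-1.65 ± 0.21 and -1.83 ± 0.21), the activating enzyme for ISG15, were among those with the smallest adjusted p, as were Herc6 in Plin2-null (-1.25 ± 0.19) and Ifi27l2a in Plin2+/+ livers (-2.13 ± 0.31). Tor3a was the gene called higher (1.94 ± 0.29 and 0.95 ± 0.28). Between genotypes in fasted livers, 1 of the 48 genes was called higher in Plin2-null mice (1.51% of all genes) and 0 lower (1.73%). It was Parp10 (0.73 ± 0.18, adjusted p = 0.0383). Of 14 genes of MHC class I presentation, 6 were lower and 1 higher in fasted Plin2-null livers, and 9 lower and 0 higher in fasted Plin2+/+ livers. Psme2, part of an interferon-induced proteasome activator, changed by -0.78 ± 0.12 and -0.98 ± 0.12. The chaperone genes Calr (-0.94 ± 0.15 and -0.99 ± 0.15), Pdia3 (-0.89 ± 0.16 and -0.87 ± 0.16) and Canx (-0.67 ± 0.12 and -0.64 ± 0.12), which also fold other proteins in the endoplasmic reticulum, were lower, as was Tapbp (-0.50 ± 0.14 and -0.78 ± 0.14), which encodes tapasin. H2-D1 was the gene called higher (0.42 ± 0.13 in Plin2-null livers). Between genotypes in fasted livers, 1 of the 14 was called higher in Plin2-null mice, H2-Q4 (0.61 ± 0.15, adjusted p = 0.0337), and 0 lower. Of the 4 chemokine genes, Cxcl9 (-1.22 ± 0.38 and -2.23 ± 0.39) and Cxcl11 (-0.87 ± 0.23 and -1.15 ± 0.24), which draw T cells, were lower in both genotypes, Cxcl10 was lower in Plin2+/+ livers (-1.92 ± 0.44, adjusted p = 0.00142) and not called in Plin2-null livers (-0.73 ± 0.43, adjusted p = 0.192), and Ccl5 was called in neither.

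Markers of further cell types were read beside the members. Of all genes, 18.1% were called lower and 18% higher in fasted Plin2-null livers, and 21.7% and 20.9% in fasted Plin2+/+ livers. Counts near these shares say little about a cell type. Of 6 neutrophil and monocyte markers tested, 0 were lower and 3 higher in fasted Plin2-null livers, and 2 lower and 2 higher in fasted Plin2+/+ livers. Of 5 B and plasma cell markers tested, 0 were lower in fasted Plin2-null and 4 in fasted Plin2+/+ livers, at sums of 3.05 to 5.29 and 3.88 to 5.14 CPM in fasted and fed Plin2-null livers, and 2.14 to 4.50 and 5.25 to 8.40 CPM in fasted and fed Plin2+/+ livers. Of 11 T and NK cell markers, 1 was lower and 1 higher in fasted Plin2-null livers and 1 lower and 2 higher in fasted Plin2+/+ livers, and their sum stayed between 6.42 and 12.1 CPM over all libraries. Dendritic cell markers other than Bst2, which is a member, summed to 23.6 to 29.8 CPM in fasted and 28.5 to 36.6 CPM in fed Plin2-null livers, and to 24.3 to 32.4 CPM in fasted and 28.4 to 39.7 CPM in fed Plin2+/+ livers. Of 7 dendritic markers tested 2 were lower in fasted livers of each genotype. Of 10 sinusoidal endothelial markers 2 were lower and 3 higher in fasted livers of each genotype. Of 10 stellate cell markers, 4 were lower in fasted Plin2-null and 6 in fasted Plin2+/+ livers, and of 5 cholangiocyte markers tested, 1 and 3 were. The cholangiocyte markers summed to 17.0 to 25.8 CPM in fasted and 29.96 to 48.3 CPM in fed Plin2-null livers, and to 12.2 to 23.3 CPM in fasted and 33.2 to 51.3 CPM in fed Plin2+/+ livers, with no overlap in either genotype. Of 8 hepatocyte markers, 3 were lower and 1 higher in fasted Plin2-null livers, and 3 lower and 2 higher in fasted Plin2+/+ livers. No marker in these lists was at 0 in all libraries. The part of these cells in the members' changes was not tested.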

How the data were processed

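RNA-seq of liver gave 20 libraries in 4 groups of 5. The authors deposited whole-number counts per gene, and separately TPM values per gene. HISAT2 1.2.1 and featureCounts 1.4.6-p1 are named per the submitters' processing notes. The build listed there is GRCh38, a human one, although the gene identifiers are mouse ones, so coordinates were taken from the GRCm38 annotation of the identifiers. No source used here gives the strand setting of the counting, so the 22 members that overlap another annotated gene may share reads with it. The header of the deposited TPM table was 1 cell short, and each TPM column was checked against the counts of its own library over 7109 genes.

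Gene symbols were found for 55141 of 55487 identifiers. Counts were tested in edgeR 4.0.16 (R 4.3.3) with filterByExpr, TMM scaling and robust quasi-likelihood fits over all 20 libraries with 1 coefficient per group. Every adjusted p of a gene is Benjamini-Hochberg over all 16312 genes, with a threshold of 0.05. CPM are counts scaled to TMM library sizes. Alternatives were DESeq2 1.42.0, limma 3.58.1 (voom, and log2 of TPM plus 1 or plus 0.1), other scalings and filters, a GC trend removed, fits of the compared groups only and leaving out each library in turn. Proteasome ratios were tested with exact two-sided permutation tests (scipy 1.17.1).

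The members and all lists were chosen with earlier results of these data known. Values in every library are given, in each role, for up to 3 members with the highest mean TPM and for members a statement rests on. Of each pathway list, up to 4 called genes with the smallest adjusted p are named, and every ligand. Other genes, named because a count of calls was 5 or fewer, were chosen after their values were seen. No replicate pair agreed within counting noise (chi-square per degree of freedom at least 45.3 over 40 pairs), so all 20 libraries were counted. Promoter windows come from RefSeq and were found for 33 members, and for 32 of their 38 windows the last 20 bases occur in a transcript of the gene. Counts over the receptor and kinase list are not reported here.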

Additional observations from a re-analysis of the deposited data

Results flagged for a closer look

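Over the 45 members and 4 groups, 7 of 180 sets of 5 libraries (3.89%) had 1 library far from the other 4. The rule was Dixon's ratio, the gap to the nearest library over the range of the 5, above 0.71 on log2 CPM. The rule marks about 1 in 20 sets by chance. Isg15 in Plin2-null fed livers, at 44.1 CPM in replicate 2 and 7.99 to 15.2 CPM in the others, was not marked on that scale. All values printed are CPM. In Plin2+/+ fasted livers, Oas3 reached 1.27 in replicate 5, with 0.475 to 0.619 in the others, and Gbp4 was 2.65 in replicate 3, with 4.18 to 4.66 in the others. In Plin2-null fasted livers replicate 2 was apart for Ifi44, at 4.46 against 2.43 to 2.46, and for Gbp3, at 8.44 against 6.22 to 6.68. In Plin2-null fed livers Psmb9 was 19.6 in replicate 2, with 7.92 to 9.52 in the others. In Plin2+/+ fed livers replicate 5 was apart for Dhx58, at 18.1 against 9.03 to 10.9, and for Isg15, at 25.6 against 9.73 to 11.4.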

How the results depend on the processing

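No value reversed a called direction under any alternative. On fasting, the type I members called lower numbered 26 to 28 in Plin2+/+ livers (main value 27) and 21 to 26 in Plin2-null livers (25) over 10 other settings, and the gamma-type ones 15 and 13 to 14. Leaving out 1 library at a time gave 26 to 29 and 15 in Plin2+/+ livers, and 20 to 25 and 13 to 14 in Plin2-null livers. For genotype in fasted livers the number of members called higher, 3, was 10 in DESeq2, 6 with the stricter filter (at least 1 CPM in 5 libraries), 0 by limma on log2(TPM + 1) and 0 on log2(TPM + 0.1), and 0 to 12 with 1 library left out; the cause was not tested. No member was called by genotype in fed livers or by the interaction in any setting. Over all genes, those called by genotype in fasted livers (246 higher, 282 lower) were 618 and 786 in DESeq2, 307 and 349 with the stricter filter, 146 and 173 without a filter, 162 and 305 with the GC trend removed, 70 and 38 with library size alone, 51 and 53 in the compared groups alone, and 8 and 8, or 8 and 6, from TPM plus 1 or plus 0.1. The interaction called 0 genes in the filtered edgeR fit, 1 without a filter, 62 in DESeq2, 2 in voom and 1 in each TPM fit. Library size alone moved the median of all genes on fasting by -0.16 in Plin2+/+ and -0.21 in Plin2-null livers, and the split of all genes to 1376 higher and 4243 lower in Plin2-null livers, against 2942 and 2954. On TPM plus 1 that split was 1010 and 4555. The members' medians were then -1.27 with library size alone and -1.08 from TPM plus 1.

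No paired analysis was possible because the titles give each library a number of its own, so groups share no replicate numbers. Limits: p-values measure the spread between libraries, whose origin in separate animals no label states. Genotype of 10 libraries was read by elimination. Low members such as Oas3, at 0.475 to 1.77 CPM in fasted livers, carry wide counting error. Intervals are not given for single libraries, and floors cover counting error only.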
